A study of Arabidopsis thaliana with 12 samples.

Results

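Transcripts of the nuclear photosystem and antenna protein genes were followed in young Arabidopsis leaves through 2 days without nitrogen, in the reference accession Col-0 and in the mutant npf8.4-1. The genes were taken by locus name and comprise 42 of the 37242 genes in each deposited table: 20 antenna genes (LHCA and LHCB), 12 photosystem I subunit genes (PSA) and 10 photosystem II subunit genes (PSB). Poly(A) RNA was sequenced in 12 libraries, 3 in each of 4 groups, and each library is a pool of 15 plants. The Col-0 day 0 and npf8.4-1 day 0 groups were grown in hydroponic culture on 5 mM KNO3 for 15 days. The Col-0 day 2 and npf8.4-1 day 2 groups were grown the same way and then kept on N-free medium for 2 days. The npf8.4-1 plants carry a mutant allele of NPF8.4, a gene of the NRT1/PTR transporter family, and the kind of lesion is not stated in the labels. Plants sampled at day 2 were older by those 2 days. Plants of their age with nitrogen were not analysed here, so depletion and age cannot be told apart. The hour of harvest is not given in the labels.

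Photosystem II and photosystem I are the pigment-protein complexes of the thylakoid membrane that use light to move electrons from water to ferredoxin. Each is surrounded by chlorophyll-binding antenna proteins, LHCB proteins mainly around photosystem II and LHCA proteins around photosystem I. Their reaction centre proteins are encoded in the chloroplast, whereas the antenna proteins and many peripheral subunits are encoded in the nucleus and imported, and together these proteins hold a large part of the nitrogen of a leaf.

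Library totals ran from 28761674 to 34282716 exon reads. The check of the labels was NPF8.4 itself, which had 250, 231 and 174 reads in the 3 Col-0 day 0 libraries against 25, 10 and 10 in npf8.4-1 day 0, and 568, 479 and 342 against 22, 47 and 22 at day 2. The first principal component of the log2 expression values held 75.6% of the variance and separated the days. Replicate 3 of both day 2 groups lay nearer to day 0 on it, at 51.38 (npf8.4-1) and 49.69 (Col-0), than the other day 2 libraries, at 66.43 to 82.91. The label of young leaf was checked against marker genes. Mesophyll markers summed to 28070 to 33606 TPM (a level scaled for transcript length and library) at day 0 and 25990 to 31523 at day 2, root markers summed to 0.33 to 1.27 TPM over all libraries, and the root hair gene EXPA7 and the meristem genes WUS and STM were at 0 in all 12.

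At day 0 the 42 genes together gave 14.9 to 18.5% of all TPM in a library, and at day 2 they gave 21.2 to 25.9%. The antenna genes held 11.3, 10.4 and 9.52% of TPM in Col-0 day 0 (mean 10.4 ± 0.874, SD, n = 3) and 14.2, 12.2 and 15.5% in Col-0 day 2 (13.9 ± 1.66). In npf8.4-1 they held 9.73, 10.6 and 9.10% at day 0 and 13.4, 13.8 and 13.2% at day 2. The day 2 libraries lay above the day 0 libraries in both genotypes, with no overlap. The photosystem I genes moved from 4.08, 3.87 and 3.55% to 5.56, 5.26 and 5.92% in Col-0, and from 3.68, 3.72 and 3.3% to 5.59, 5.66 and 5.46% in npf8.4-1. The photosystem II genes moved from 3.17, 2.94 and 2.74% to 4.32, 3.77 and 4.56% in Col-0, and from 2.72, 2.85 and 2.51% to 4.2, 4.3 and 4% in npf8.4-1. For these 2 subsets too, every day 2 library exceeded every day 0 library of its genotype. Of the TPM of the 42 genes, the antenna part was 60.5% (SD 0.329) in Col-0 day 0 and 58.7% (SD 1.12) in Col-0 day 2, and the photosystem I part was 22.3% (SD 0.259) and 23.6% (SD 1.07). A share of TPM depends on every other transcript in the library. Single genes were tested on counts scaled between libraries, which are also relative to the other transcripts. In bulk leaf tissue, fewer cells of a type and less RNA per cell cannot be told apart.

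**Figure D1:**
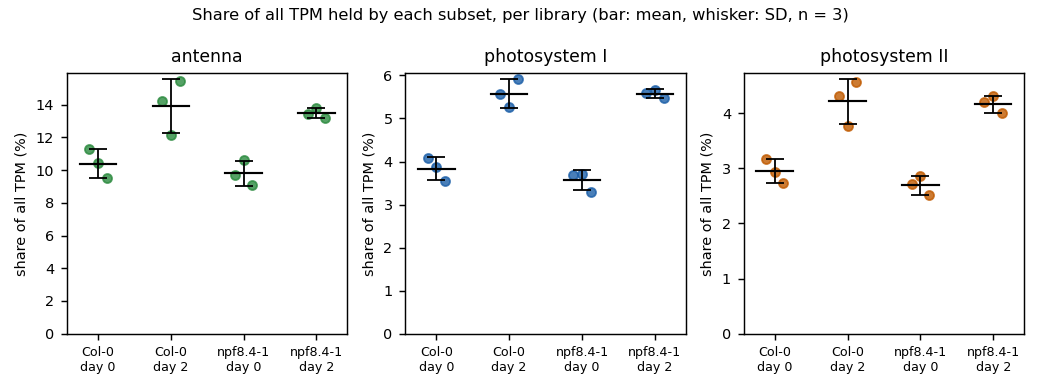
Share of all TPM (y axis, percent) held by the antenna, photosystem I and photosystem II genes in each of the 4 groups (x axis). Points are libraries, bars and whiskers the mean and SD of 3 libraries. In each panel the day 2 points lie above the day 0 points of the same genotype, for example 12.2 to 15.5% against 9.52 to 11.3% for the antenna genes of Col-0.

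By level, LHCB1.3, a gene of the major light-harvesting complex of photosystem II, ranked first of the 42 in every group, with a mean of 17458 TPM over the 12 libraries. LHCB3 (11625 TPM), LHCB1.1 (9746), LHCA1 (9352) and LHCA4 (9261) followed. The highest photosystem I gene was PSAF at 8178 TPM, and the highest photosystem II genes were PSBP1 at 6045 TPM and PSBR at 6030 TPM. The 3 lowest were antenna genes, LHCA5 at 279 TPM, LHCA6 at 249 TPM and LHCB4.3 at 73.3 TPM. The next gene above them, PSAE2, had 1071 TPM. The order was not the same on both days: LHCB1.1 went from rank 2 to rank 8 in both genotypes, and LHCB1.5 went from rank 9 to rank 3 in Col-0 and to rank 6 in npf8.4-1.

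After 2 days without nitrogen, 32 of the 42 genes were higher in Col-0, none was lower, and 10 did not pass the test (adjusted p under 0.05 in the quasi-likelihood test of edgeR, with Benjamini-Hochberg adjustment over 19416 genes). Of all tested genes, 29.6% were called higher in that comparison and 30.4% lower, 60% in either direction. The median log2 fold change of the 42 genes was 0.44, with a range of -0.17 to 1.67, and that of all tested genes was 0.02. In npf8.4-1, 31 genes were higher, LHCB1.1 was lower and 10 did not pass, where 32.5% of all tested genes were called higher and 31.6% lower (64.1% in either direction). The median there was 0.51, with a range of -0.49 to 2.07, against 0.03 for all tested genes. Most rises were under 2-fold: 1 gene in Col-0 and 3 in npf8.4-1 were at least 2-fold higher. All 3 day 2 libraries lay above all 3 day 0 libraries for 30 genes in Col-0 and 33 in npf8.4-1, and below them for 0 and 1. The shares of all tested genes that reached 2-fold or separated in this way were not counted. These numbers therefore describe the members only. The Col-0 count rested partly on single day 0 libraries: 21 genes were higher without Col-0 day 0 replicate 3 and 22 without replicate 2, while the npf8.4-1 count was 28 to 33 with any 1 library left out. Over all tested genes, Col-0 calls in either direction fell too, from 11659 of 19416. They numbered 10270 of 19621 without Col-0 day 0 replicate 3 and 10468 of 19630 without replicate 2.

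**Figure D2:**
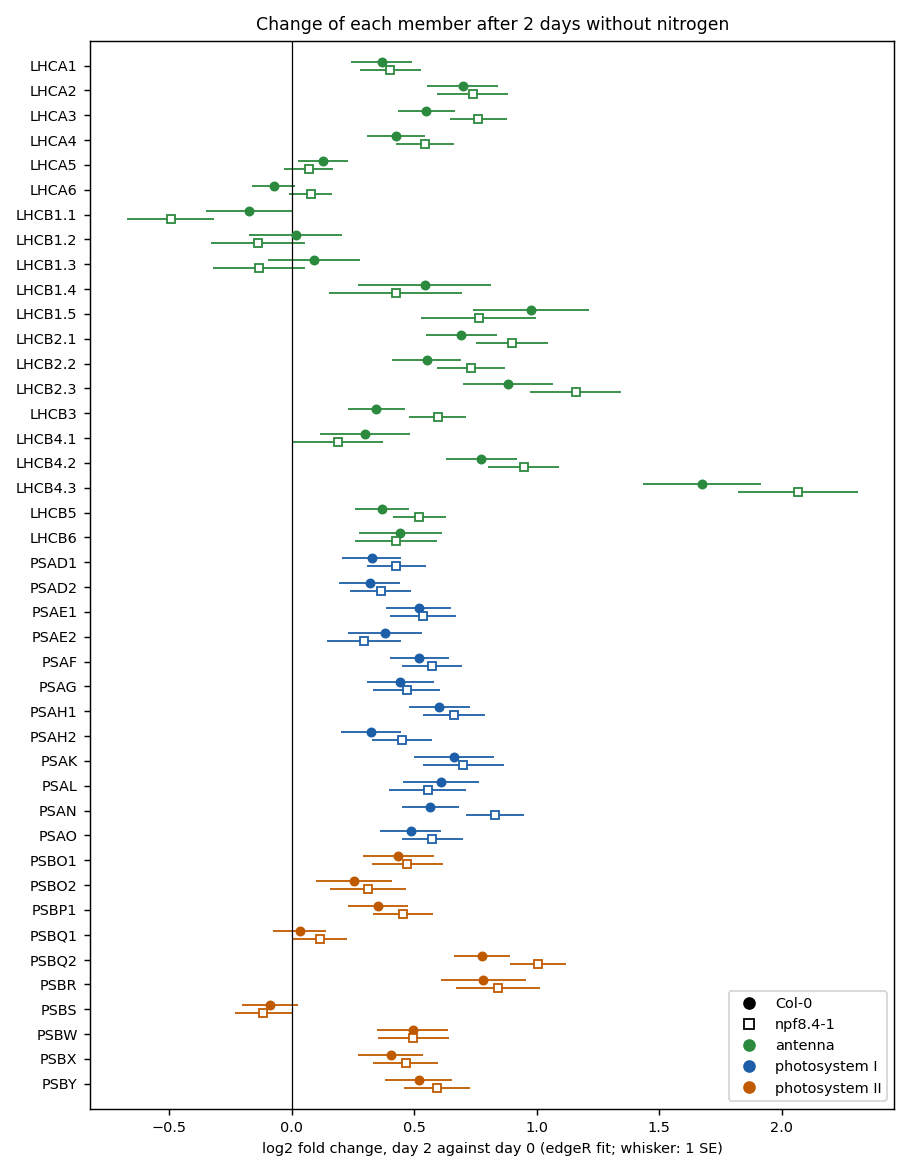
Log2 fold change of each gene, day 2 against day 0 (x axis), in Col-0 (filled circles) and npf8.4-1 (open squares), with whiskers of 1 SE from the edgeR fit; genes are on the y axis, coloured by subset. Most points lie right of 0, LHCB4.3 lies farthest right at 1.67 and 2.07, and LHCB1.1 lies farthest left at -0.17 and -0.49.

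All 12 photosystem I genes were higher in Col-0 (median log2 fold change 0.50) and 11 of 12 in npf8.4-1 (0.55). Of the 20 antenna genes, 13 were higher in Col-0 (median 0.43), and in npf8.4-1 13 were higher and 1 lower (0.53). Of the 10 photosystem II genes, 7 were higher in Col-0 (median 0.42) and 7 in npf8.4-1 (0.47). The photosystem I genes lay close together, from 0.32 to 0.66 in Col-0, whereas the antenna genes ran over the whole range from -0.17 to 1.67. Without Col-0 day 0 replicate 3 the counts in Col-0 were 7 photosystem I and 4 photosystem II genes, without replicate 2 they were 8 and 4, and without replicate 3 of both day 2 groups they were also 8 and 4. Differences between the subsets were not tested.

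The 42 genes also moved together between pools of one group. Col-0 day 0 replicate 1 was the highest and replicate 3 the lowest of its group for all 42 genes. Col-0 day 2 replicate 3 was highest for 41 genes, npf8.4-1 day 0 replicate 2 was highest for 39 and replicate 3 lowest for 37. In npf8.4-1 day 2 the libraries were closer, and replicates 1, 2 and 3 were highest for 20, 15 and 7 genes. The p-values below are therefore not independent between genes. How many of all tested genes ranked the libraries in these ways was not counted, so these counts describe the members only. Outside the members, RCA and CHLH kept the members' order in Col-0 day 0, whereas PORB had the reverse order. Replicate numbers also shared an order across the groups in clock genes: CCA1, LHY, RVE1 and LNK2 had replicate 1 highest and replicate 3 lowest in all 4 groups, and PRR5, TOC1, GI, ELF4 and LUX the reverse. LHY, a morning clock factor, had 5.44, 4.07 and 2.21 CPM (counts per 1000000, scaled by TMM) in Col-0 day 0 and 16.2, 13.1 and 7.31 CPM in npf8.4-1 day 2. These are 9 of 17 clock genes (52.9%), against 3.44% of all tested genes and 0 of the 42 members that kept either order in all 4 groups. The labels do not say what a replicate number marks, and its part in the members' changes was not tested. With the replicate number as a block, 31 members were higher in each genotype.

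**Figure D3:**
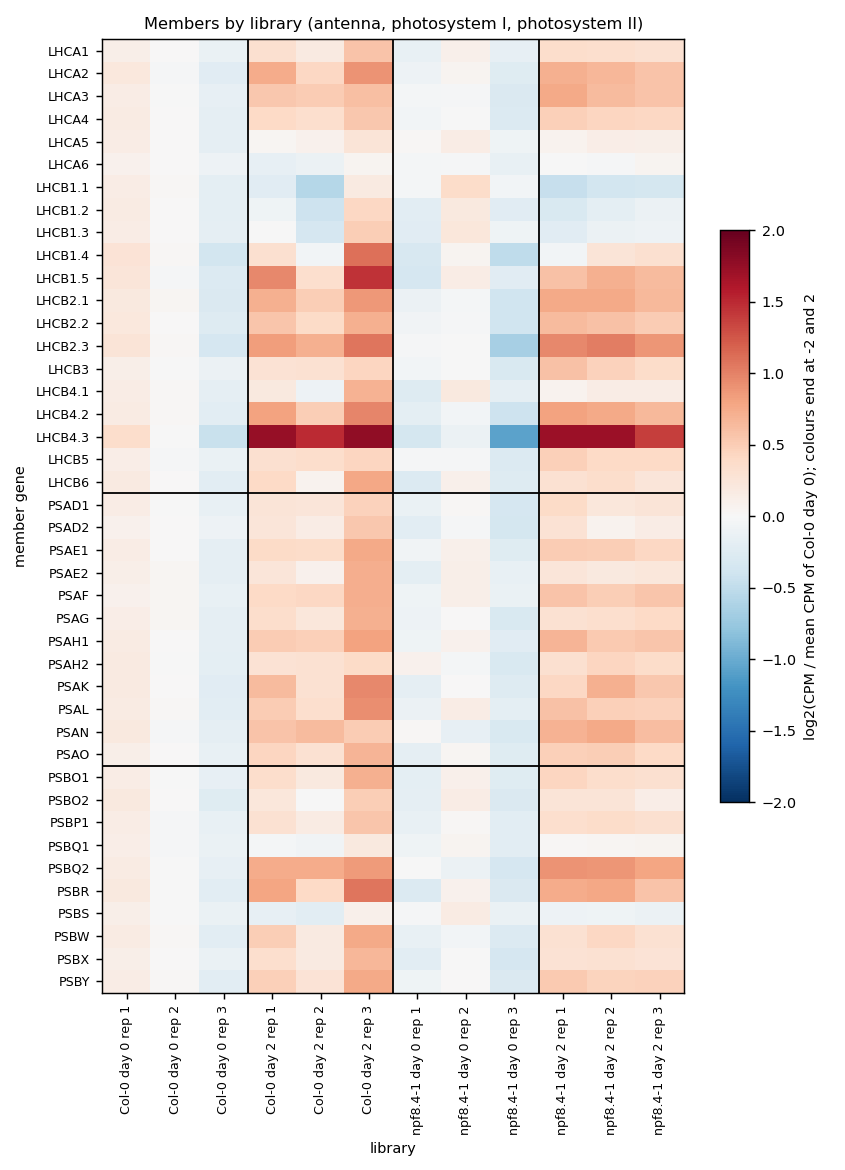
Level of each gene (rows, by subset) in each of the 12 libraries (columns, by group), as log2 of CPM over the mean CPM of Col-0 day 0; red is higher and blue lower, and colours end at -2 and 2. The day 2 columns are redder for most rows, the LHCB1.1, LHCB1.2 and LHCB1.3 rows stay pale or turn blue in npf8.4-1 day 2, and Col-0 day 2 replicate 3 is the reddest column of its group.

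The LHCA proteins form the antenna belt of photosystem I, with LHCA1 to LHCA4 as its main components. These 4 genes were higher in both genotypes, with log2 fold changes of 0.37 to 0.70 in Col-0 and 0.40 to 0.76 in npf8.4-1. LHCA2 rose most in Col-0, by 0.70 (SE 0.15), and LHCA3 most in npf8.4-1, by 0.76 (SE 0.12). The Col-0 call of LHCA1 (edgeR adjusted p = 0.022) was lost in 4 of 20 other settings, among them without Col-0 day 0 replicate 2 (0.0624) or 3 (0.0851). LHCA5 and LHCA6, which link photosystem I to the NDH complex of cyclic electron flow, had the low levels given above and did not pass in either genotype. LHCA6 had 196, 185 and 171 CPM in Col-0 day 0 and 164, 169 and 191 in Col-0 day 2. Its log2 fold change was -0.07 (SE 0.09, edgeR adjusted p = 0.484), and 0.08 (SE 0.09, adjusted p = 0.452) in npf8.4-1. LHCA5 gave 0.13 (SE 0.10) and 0.07 (SE 0.10).

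The major trimeric antenna of photosystem II is made from LHCB1, LHCB2 and LHCB3, and LHCB1 has 5 gene copies. LHCB1.1, LHCB1.2 and LHCB1.3 (AT1G29920, AT1G29910 and AT1G29930) lie side by side at chr1:10472280-10479114, and LHCB1.4 and LHCB1.5 (AT2G34430 and AT2G34420) at chr2:14522524-14525918 (TAIR10). The copies are shown by the first 54 coding bases, since how well reads can tell them apart bears on every value below. Capitals mark the 13 positions at which the 5 copies are not all alike (sequence of TAIR10.1, whose gene positions equal the deposited ones for all 42 genes).
LHCB1.1: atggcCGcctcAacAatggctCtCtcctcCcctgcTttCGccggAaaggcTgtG
LHCB1.2: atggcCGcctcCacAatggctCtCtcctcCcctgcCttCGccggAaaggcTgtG
LHCB1.3: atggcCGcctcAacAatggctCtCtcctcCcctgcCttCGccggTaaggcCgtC
LHCB1.4: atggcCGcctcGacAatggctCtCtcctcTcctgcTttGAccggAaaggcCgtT
LHCB1.5: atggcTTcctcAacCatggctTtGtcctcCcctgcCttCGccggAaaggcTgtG
Over the whole coding sequence the 3 chromosome 1 copies were 95.6 to 96.4% identical to each other and 86.8 to 90.4% identical to the chromosome 2 copies. LHCB1.4 and LHCB1.5 were 91.4% identical. Of the 100-base windows of a transcript, 1.51 to 4.44% occurred without a mismatch in another LHCB1 copy. The sources used here do not say how reads that match several copies were counted, so values of single copies are uncertain.

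The copies did not move alike. LHCB1.5 had 4884, 4052 and 3387 CPM in Col-0 day 0 and 7961, 5164 and 11136 CPM in Col-0 day 2. In npf8.4-1 it had 3261, 4571 and 3501 CPM at day 0 and 6153, 6700 and 6381 CPM at day 2. All day 2 libraries lay above the day 0 libraries of their genotype, and LHCB1.5 rose by 0.98 (SE 0.24, edgeR adjusted p = 0.00343) in Col-0 and by 0.76 (SE 0.24, adjusted p = 0.013) in npf8.4-1. The second call was at adjusted p = 0.05 without npf8.4-1 day 0 replicate 1. LHCB1.1 had 9596, 8717 and 7544 CPM in Col-0 day 0 and 7339, 5818 and 9775 CPM in Col-0 day 2. In npf8.4-1 its day 0 libraries, at 8364, 11066 and 8295 CPM, all lay above its day 2 libraries, at 6242, 6706 and 6732 CPM. The groups overlapped in Col-0 (-0.17, SE 0.18, edgeR adjusted p = 0.423) and did not in npf8.4-1 (-0.49, SE 0.18, adjusted p = 0.0275). The npf8.4-1 call was lost without npf8.4-1 day 0 replicate 2, day 2 replicate 1 or day 2 replicate 2, with adjusted p up to 0.133.

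LHCB1.3, the highest of all 42, had 15059, 13616 and 12001 CPM in Col-0 day 0 and 13497, 10699 and 19138 CPM in Col-0 day 2. In npf8.4-1 it had 11607, 15916 and 12715 CPM at day 0 and 11604, 12456 and 12616 CPM at day 2. The groups overlapped in both genotypes, and neither change passed (0.09 and -0.13, SE 0.19 in both; -0.12 in Col-0 without day 2 replicate 3). LHCB1.2 gave 0.02 and -0.14 (SE 0.19) and LHCB1.4 gave 0.54 and 0.42 (SE 0.27), also short of the threshold. LHCB1.4 passed in 1 of 19 other settings in each genotype. These were Col-0 without Col-0 day 2 replicate 2 (edgeR adjusted p = 0.0229) and npf8.4-1 in a fit of only the groups compared (0.0487). With the reads of the 5 copies summed, LHCB1 changed by 0.19 (SE 0.20, edgeR adjusted p = 0.437) in Col-0 and by -0.07 (SE 0.20, adjusted p = 0.781) in npf8.4-1.

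Within the family, LHCB1.5 gave 14.6, 13.6 and 13.2% of the LHCB1 TPM in Col-0 day 0 and 24.5, 21.0 and 24.1% in Col-0 day 2. In npf8.4-1 it gave 12.6, 13.1 and 13.1% and then 22.8, 22.8 and 21.5%. LHCB1.1 gave 22.8, 23.3 and 23.4% and then 17.9, 18.8 and 16.8% in Col-0, and 25.8, 25.3 and 24.7% and then 18.4, 18.1 and 18.1% in npf8.4-1. The shares of the replicate pools lay much closer together than their CPM values, and the days did not overlap for either copy. LHCB1.3 kept the largest share, a mean of 39.0% in Col-0 day 0 and 35.8% in Col-0 day 2. These shares were not tested.

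**Figure D4:**
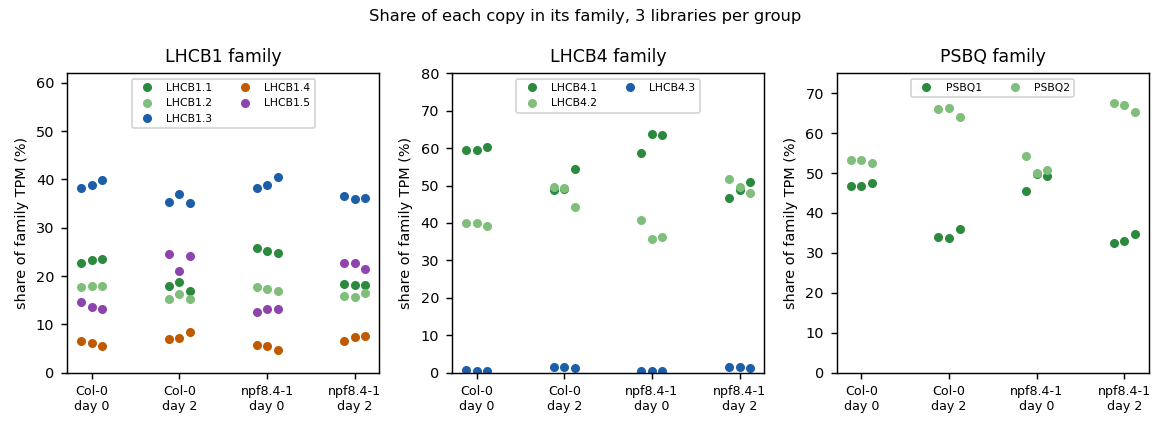
Share of the family's TPM (y axis, percent) given by each copy of LHCB1, LHCB4 and PSBQ in the 4 groups (x axis); each point is 1 library. In Col-0 the mean share of LHCB1.5 moves from 13.8 to 23.2%, that of LHCB4.2 from 39.7 to 47.8% and that of PSBQ2 from 53.0 to 65.5%, and the points of npf8.4-1 move the same way.

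The other genes of the trimeric antenna were higher in both genotypes. LHCB2 proteins are among those phosphorylated in state transitions, in which antenna moves between the photosystems. LHCB2.1, LHCB2.2 and LHCB2.3 changed by 0.69, 0.55 and 0.88 in Col-0 and by 0.90, 0.73 and 1.16 in npf8.4-1 (SE 0.14 to 0.18, largest edgeR adjusted p = 0.00438). Of the 100-base windows of LHCB2.1 and LHCB2.2, 7.43 and 7.28% were shared between copies. LHCB3 had 8496, 7745 and 7154 CPM in Col-0 day 0 and 9561, 9616 and 10556 CPM in Col-0 day 2. In npf8.4-1 it had 7506, 7733 and 6299 CPM at day 0 and 11723, 10746 and 10084 CPM at day 2. Day 2 was above day 0 throughout, by 0.35 (SE 0.12, edgeR adjusted p = 0.0216) and 0.60 (SE 0.12, adjusted p = 0.000656). The Col-0 call of LHCB3 was lost without Col-0 day 0 replicate 2 or 3 (adjusted p up to 0.0814).

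The minor antenna proteins LHCB4 (CP29), LHCB5 (CP26) and LHCB6 (CP24) are monomers that join the trimers to the photosystem II core. LHCB4.3 rose most of all 42 genes in both genotypes, from the lowest level. It had 41.5, 32.6 and 23.9 CPM in Col-0 day 0 and 110, 91.5 and 112 CPM in Col-0 day 2, and 25.7, 30.1 and 15.6 CPM followed by 107, 107 and 84.8 CPM in npf8.4-1. The days were far apart in both genotypes, by a log2 fold change of 1.67 (SE 0.24, edgeR adjusted p = 0.000122) and 2.07 (SE 0.24, adjusted p = 2.37e-05). LHCB4.1, the copy with most transcripts at day 0, did not pass (0.30 and 0.19, SE 0.18), with 3530, 3231 and 2804 CPM in Col-0 day 0 and 3640, 2969 and 5154 CPM in Col-0 day 2. The Col-0 change of LHCB4.1 passed in 1 of 19 other settings, without Col-0 day 2 replicate 2 (edgeR adjusted p = 0.0402). LHCB4.2 had 2320, 2123 and 1790 CPM in Col-0 day 0 and 3628, 2924 and 4106 CPM in Col-0 day 2, and in npf8.4-1 1815, 1997 and 1565 CPM and then 3621, 3503 and 3245 CPM. It was higher without overlap in both, by 0.77 (SE 0.14, edgeR adjusted p = 0.000515) and 0.95 (SE 0.15, adjusted p = 8.96e-05). Its share of LHCB4 TPM went from a mean of 39.7% to 47.8% in Col-0 and from 37.6% to 49.8% in npf8.4-1. LHCB5 and LHCB6 were higher too, by 0.37 and 0.44 in Col-0 and by 0.52 and 0.43 in npf8.4-1. For LHCB6 the Col-0 groups overlapped, and its edgeR adjusted p rose from 0.0364 to as much as 0.157 with libraries left out. Its npf8.4-1 call (edgeR adjusted p = 0.0405) was lost in 8 of 20 other settings, at up to 0.1245 without npf8.4-1 day 0 replicate 3.

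Among the photosystem I subunits, PSAD and PSAE sit on the stromal side where ferredoxin docks. PSAD1 and PSAD2 changed by 0.33 and 0.32 in Col-0 and by 0.43 and 0.36 in npf8.4-1, and PSAE1 by 0.52 and 0.54. The Col-0 calls of PSAD1 and PSAD2 were lost in 6 and 8 of 19 other settings, among them without Col-0 day 0 replicate 2 or 3 or day 2 replicate 3 (edgeR adjusted p up to 0.1235 and 0.131). PSAD2 lost its npf8.4-1 call without npf8.4-1 day 0 replicate 1 or 3 or day 2 replicate 1 (edgeR adjusted p up to 0.0923). In the reported fit PSAE2 passed in Col-0 (0.38, SE 0.15, edgeR adjusted p = 0.0452) and not in npf8.4-1 (0.30, SE 0.15, adjusted p = 0.104). Its Col-0 groups overlapped, whereas its npf8.4-1 groups did not. The Col-0 call of PSAE2 was lost in 12 of 19 other settings. Its npf8.4-1 change passed in 5 of 19 (edgeR adjusted p down to 0.0117). On the lumenal side, PSAF and PSAN serve the docking of plastocyanin. PSAF had 5333, 5145 and 4541 CPM in Col-0 day 0 and 6618, 6638 and 8297 CPM in Col-0 day 2, and 4719, 5410 and 4566 CPM and then 7423, 7043 and 7391 CPM in npf8.4-1. The days were separate in both genotypes, by 0.52 (SE 0.12, edgeR adjusted p = 0.00237) and 0.57 (SE 0.12, adjusted p = 0.00109). PSAN had 1834, 1574 and 1410 CPM in Col-0 day 0 and 2380, 2479 and 2275 CPM in Col-0 day 2, and 1628, 1439 and 1306 CPM and then 2600, 2708 and 2470 CPM in npf8.4-1. It was higher in every day 2 library, by 0.57 (SE 0.12) and 0.83 (SE 0.12), the latter being the largest change of a photosystem I gene in npf8.4-1.

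PSAG and PSAK are membrane subunits next to the LHCA belt. PSAK rose most of the photosystem I genes in Col-0, from 1403, 1246 and 1049 CPM to 1916, 1526 and 2412 CPM, a log2 fold change of 0.66 (SE 0.16, edgeR adjusted p = 0.00368). In npf8.4-1 it went from 1083, 1244 and 1033 CPM to 1641, 2028 and 1791 CPM (0.70, SE 0.16, edgeR adjusted p = 0.0023), so day 2 was above day 0 in both genotypes. PSAG gave 0.44 and 0.47 (SE 0.14). PSAH, PSAL and PSAO form the side of photosystem I at which trimeric antenna docks in state transitions. PSAL went from 3083, 2795 and 2392 CPM to 3928, 3468 and 5223 CPM in Col-0 (0.61, SE 0.16, edgeR adjusted p = 0.0045). Its npf8.4-1 values were 2544, 3056 and 2411 CPM at day 0 and 4151, 3818 and 3801 CPM at day 2 (0.55, SE 0.16, edgeR adjusted p = 0.00724). Neither genotype's groups overlapped. PSAO, the second most abundant photosystem I transcript per length, went from 2915, 2709 and 2420 CPM to 3624, 3322 and 4318 CPM in Col-0 and from 2355, 2770 and 2277 CPM to 3741, 3758 and 3524 CPM in npf8.4-1. PSAO was higher by 0.49 and 0.57 (SE 0.12), PSAH1 by 0.60 and 0.66 (SE 0.13), and PSAH2 by 0.32 and 0.45 (SE 0.12). In Col-0, without day 0 replicate 3 the edgeR adjusted p was 0.0611 for PSAG and 0.149 for PSAH2, and PSAH2 also lost its call without day 0 replicate 2 or day 2 replicate 1 or 2.

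In photosystem II, PSBO, PSBP and PSBQ are the extrinsic proteins that stabilise the manganese cluster at which water is split. PSBP1, the most abundant PSB transcript per length, had 5036, 4495 and 4109 CPM in Col-0 day 0 and 5630, 5086 and 6698 CPM in Col-0 day 2. In npf8.4-1 it had 4095, 4604 and 3915 CPM and then 5741, 5890 and 5651 CPM. The days did not overlap in either genotype, and the change was 0.35 (SE 0.12, edgeR adjusted p = 0.0258) in Col-0 and 0.45 (SE 0.12, adjusted p = 0.00608) in npf8.4-1. The Col-0 call was lost without Col-0 day 0 replicate 2 or 3 or day 2 replicate 3 (adjusted p up to 0.0994). PSBO1 was higher in both genotypes (0.43 and 0.47, SE 0.15). Its Col-0 call was lost in 5 of 19 other settings, among them without Col-0 day 0 replicate 2 or 3 or day 2 replicate 3 (edgeR adjusted p up to 0.0804), and its npf8.4-1 call without npf8.4-1 day 0 replicate 3 (0.051). PSBO2, which encodes the less abundant PSBO protein, gave 0.25 and 0.31 (SE 0.16) and did not pass (edgeR adjusted p = 0.177 and 0.098), but did with library totals as the scale (0.0487 and 0.0116) and, in npf8.4-1, without npf8.4-1 day 0 replicate 2 (0.024).

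The PSBQ copies separated. PSBQ2 (AT4G05180) went from 2173, 1938 and 1732 CPM to 3265, 3246 and 3502 CPM in Col-0 and from 1929, 1792 and 1543 CPM to 3643, 3577 and 3352 CPM in npf8.4-1. PSBQ1 (AT4G21280) had 1490, 1334 and 1231 CPM and then 1316, 1289 and 1541 CPM in Col-0, and 1269, 1398 and 1173 CPM and then 1373, 1387 and 1397 CPM in npf8.4-1. PSBQ2 was higher without overlap, by 0.78 (SE 0.11, edgeR adjusted p = 8.1e-05) and 1.01 (SE 0.12, adjusted p = 7.69e-06), the smallest adjusted p of the 42 genes in each genotype. PSBQ1 overlapped between days and gave 0.03 and 0.11 (SE 0.11, adjusted p = 0.819 and 0.375). PSBQ2 thus gave 53.0% (SD 0.49) of the PSBQ TPM in Col-0 day 0 and 65.5% (SD 1.3) in Col-0 day 2, and 51.8% (SD 2.3) and 66.6% (SD 1.2) in npf8.4-1. The PSBQ copies are 76.5% identical over their coding sequence and shared no 100-base window.

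PSBR, a small lumenal protein that helps PSBP to bind, went from 2551, 2211 and 1930 CPM to 3870, 2933 and 4709 CPM in Col-0 and from 1844, 2378 and 1831 CPM to 3722, 3812 and 3323 CPM in npf8.4-1. It was higher in every day 2 library, by 0.78 (SE 0.17, edgeR adjusted p = 0.00164) and 0.84 (SE 0.17, adjusted p = 0.000854). The small membrane subunits PSBW, PSBX and PSBY were higher by 0.40 to 0.52 in Col-0 and by 0.47 to 0.59 in npf8.4-1, and PSBX lost its Col-0 call without Col-0 day 0 replicate 2 or 3 (edgeR adjusted p up to 0.0732). PSBS, which senses the acidity of the lumen and switches on the release of excess light energy as heat, did not follow them. It had 1777, 1626 and 1497 CPM in Col-0 day 0 and 1450, 1411 and 1745 CPM in Col-0 day 2, and 1608, 1831 and 1496 CPM and then 1517, 1535 and 1503 CPM in npf8.4-1. The groups overlapped in both genotypes, with -0.09 and -0.12 (SE 0.11, edgeR adjusted p = 0.524 and 0.395).

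Promoters are shown for pairs of LHCB1, LHCB4 and PSBQ copies that moved apart, as the 250 bases before the annotated start. The sequences are read 5′ to 3′ on the gene's strand (TAIR10.1). They lie at chr1:10475970-10476219 (minus, LHCB1.1), chr2:14523569-14523818 (minus, LHCB1.5), chr5:208616-208865 (plus, LHCB4.1), chr3:2717307-2717556 (plus, LHCB4.2), chr4:11334102-11334351 (plus, PSBQ1) and chr4:2673244-2673493 (minus, PSBQ2). Capitals mark matches, on either strand, to the G-box CACGTG, the I-box GATAAG, the CCAATC motif, the CCA1 binding site AAAAATCT and the evening element AAAATATCT, and none of these contains another.
LHCB1.1: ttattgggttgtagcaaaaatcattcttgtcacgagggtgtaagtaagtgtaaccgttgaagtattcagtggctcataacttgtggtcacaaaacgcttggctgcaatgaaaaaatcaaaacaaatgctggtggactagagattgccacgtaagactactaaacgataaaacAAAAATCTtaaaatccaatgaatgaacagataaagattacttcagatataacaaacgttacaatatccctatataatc
LHCB1.5: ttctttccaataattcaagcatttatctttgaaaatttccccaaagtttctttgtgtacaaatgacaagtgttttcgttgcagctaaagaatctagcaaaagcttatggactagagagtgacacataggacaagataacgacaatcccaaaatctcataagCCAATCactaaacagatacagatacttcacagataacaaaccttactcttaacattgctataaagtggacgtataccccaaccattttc
LHCB4.1: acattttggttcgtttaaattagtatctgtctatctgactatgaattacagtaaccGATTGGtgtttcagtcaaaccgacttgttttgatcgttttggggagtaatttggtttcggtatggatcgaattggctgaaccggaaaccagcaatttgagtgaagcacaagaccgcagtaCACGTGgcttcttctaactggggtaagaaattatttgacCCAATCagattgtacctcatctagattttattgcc
LHCB4.2: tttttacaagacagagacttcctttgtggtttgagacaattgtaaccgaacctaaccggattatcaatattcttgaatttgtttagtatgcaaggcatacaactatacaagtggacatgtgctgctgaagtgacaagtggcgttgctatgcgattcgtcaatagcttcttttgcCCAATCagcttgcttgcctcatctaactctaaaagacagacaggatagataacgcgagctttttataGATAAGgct
PSBQ1: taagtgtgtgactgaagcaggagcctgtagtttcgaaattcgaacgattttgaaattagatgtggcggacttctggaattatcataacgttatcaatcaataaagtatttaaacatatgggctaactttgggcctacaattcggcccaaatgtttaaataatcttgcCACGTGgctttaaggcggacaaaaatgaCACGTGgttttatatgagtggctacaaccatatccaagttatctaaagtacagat
PSBQ2: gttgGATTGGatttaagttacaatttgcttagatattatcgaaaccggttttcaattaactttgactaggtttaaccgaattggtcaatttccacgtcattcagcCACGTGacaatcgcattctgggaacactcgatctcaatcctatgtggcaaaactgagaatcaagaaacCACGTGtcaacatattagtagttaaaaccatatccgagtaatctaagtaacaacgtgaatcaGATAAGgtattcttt
LHCB1.1 held only the CCA1 site, which begins 78 bases before the start, and LHCB1.5 only a CCAATC, 89 bases before it. LHCB4.1 held a G-box and 2 CCAATC motifs, and LHCB4.2 held 1 CCAATC and an I-box. PSBQ1 held 2 G-boxes, beginning 83 and 55 bases before the start, and PSBQ2 held 2 G-boxes, at 145 and 77, an I-box and a CCAATC. Copies not shown held some of the same motifs. LHCB1.3, which did not pass in either genotype (log2 fold changes 0.09 and -0.13), held a CCAATC 91 bases before its start. LHCB1.4, which did not pass either (0.54 and 0.42), held a CCA1 site. LHCB1.2 held none of these motifs, and neither did LHCB4.3, which rose most of the 42 genes. Among the 250-base promoters of all 27443 protein-coding genes, 6.49% held the G-box, 12.3% the I-box, 10.2% CCAATC, 6.69% the CCA1 site and 2.36% the evening element. Among the 42 genes, 8 (19.0%) held the G-box, 9 (21.4%) the I-box, 11 (26.2%) CCAATC, 5 (11.9%) the CCA1 site and 1 (2.38%) the evening element. CCAATC was unevenly spread: 10 of 20 antenna promoters (50%), 0 of 12 photosystem I promoters and 1 of 10 photosystem II promoters held it. These are matches of letters and were given no test.

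Between the genotypes none of the 42 genes passed the edgeR test on either day. At day 0, where 0.149% of all tested genes were called (0.0309% higher and 0.118% lower), 39 of the 42 were lower in npf8.4-1 by sign, the median log2 difference (npf8.4-1 minus Col-0) was -0.11 and the smallest adjusted p was 0.759. At day 2, where 1.44% were called (0.484% higher and 0.953% lower), 29 were negative, the median was -0.04 and the smallest adjusted p was 0.643. Of all tested genes, 50.2% had a positive difference at day 0 (median 0.0005) and 53.7% at day 2 (median 0.016). No member had an unadjusted p under 0.05 on either day, and the members share their libraries, so the 39 signs are not separate evidence. The 3 members with the smallest unadjusted p at day 0, all not passing, were LHCB4.3 (-0.46, SE 0.24), PSAD2 (-0.19, SE 0.12) and LHCB4.2 (-0.21, SE 0.14). PSAD2 had 1358, 1294 and 1199 CPM in Col-0 and 1111, 1263 and 1003 CPM in npf8.4-1, which overlapped. At day 2 they were LHCB1.5 (-0.33, SE 0.23), LHCB1.4 (-0.35, SE 0.27) and LHCB1.3 (-0.24, SE 0.19). LHCB1.4 had 2851, 2199 and 4905 CPM in Col-0 day 2 and 2204, 2738 and 2844 CPM in npf8.4-1 day 2, and without Col-0 day 2 replicate 3 its difference was 0.0043. The median SE of these genotype differences was 0.136 on each day.

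The interaction, the day 2 minus day 0 change in npf8.4-1 less that in Col-0, asks whether the genotypes responded differently. No member passed, and none of the 19416 tested genes did (0% called by edgeR, 1759 genes at an unadjusted p under 0.05, 269 called by DESeq2). The members' interaction estimates ran from -0.32 to 0.39 with a median of 0.06 and a median SE of 0.193, and no member had an unadjusted p under 0.05. The 3 with the smallest were PSAN (0.26, SE 0.17), LHCB3 (0.25, SE 0.17) and PSBQ2 (0.23, SE 0.16). LHCB1.1 and PSAE2, which passed in 1 genotype, were not shown to differ between the genotypes.

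Other genes of the light reactions were counted by the same test, in which Col-0 had 29.6% of all tested genes higher and 30.4% lower, and npf8.4-1 had 32.5% and 31.6%. Of 14 nuclear genes for electron transport and ATP synthase, 6 were higher and 0 lower in Col-0 (median log2 fold change 0.20) and 7 higher and 1 lower in npf8.4-1 (0.32). PGRL1A and PGRL1B, which act in cyclic electron flow around photosystem I, rose by 0.65 (SE 0.15) and 0.96 (SE 0.13) in Col-0 and by 0.92 and 1.17 in npf8.4-1. PETM of the cytochrome b6f complex (0.35 and 0.48) and ATPG of the ATP synthase (0.40 and 0.46) were also higher. Of 13 other photosystem proteins, such as assembly factors and distant antenna relatives, 3 were higher and 5 lower in Col-0 (median -0.04) and 4 higher and 3 lower in npf8.4-1 (-0.04). LHCB7, a rare relative of the LHCB proteins, rose by 1.00 (SE 0.13) and 1.37 (SE 0.13). The lower genes included LIL3:1, which keeps geranylgeranyl reductase at the membrane (-0.80 and -0.87), PSB28 (-0.92 and -1.02) and PPL1, a PSBP-like protein linked to the repair of photosystem II (-0.57 and -0.44).

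Of 15 chlorophyll synthesis genes, 1 was higher and 9 lower in Col-0 (median -0.33), and 0 higher and 8 lower in npf8.4-1 (-0.27). CHLI1 and CHLI2, subunits of magnesium chelatase, fell by 0.99 (SE 0.11) and 0.87 (SE 0.12) in Col-0. CHLG, the chlorophyll synthase, gave -0.79 and -0.86, and DVR, the divinyl reductase, gave -0.83 and -0.72. Of 9 genes for antenna insertion and phosphorylation, 3 were higher and 3 lower in each genotype. CPSRP54 and CPFTSY, which carry LHC proteins to the thylakoid membrane, gave -1.07 and -0.69 in Col-0, and -1.26 and -0.76 respectively in npf8.4-1. STN7, the kinase of state transitions, and TAP38, the opposing phosphatase, gave 0.83 and 0.57 in Col-0, and 1.07 and 0.65 respectively in npf8.4-1. The largest edgeR adjusted p among the genes named in these 4 groups was 0.00804.

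**Figure D5:**
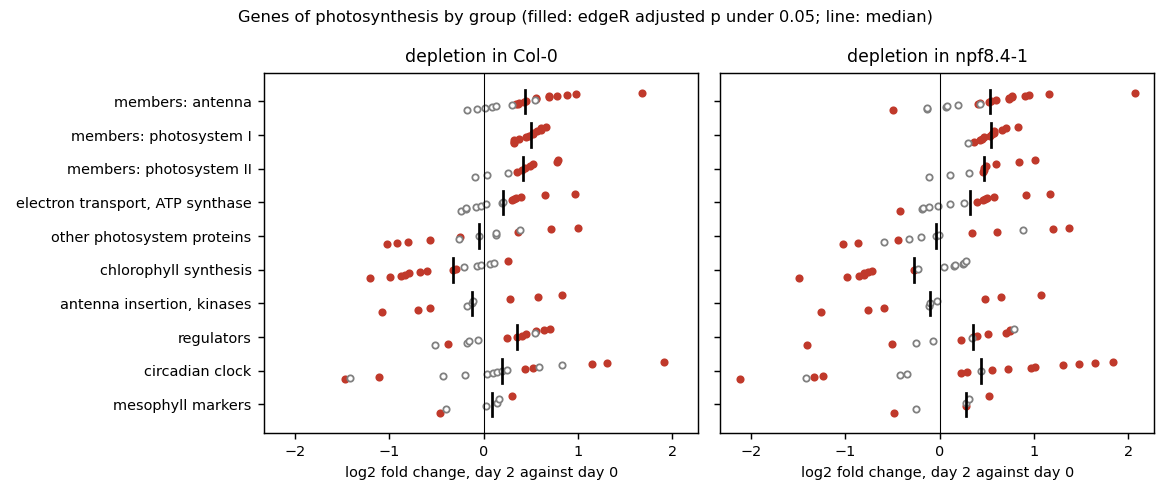
Log2 fold change, day 2 against day 0 (x axis), of single genes in the member subsets, other groups of the light reactions, regulators, clock genes and mesophyll markers (y axis), for Col-0 (left) and npf8.4-1 (right); filled points passed the edgeR test at adjusted p under 0.05, open points did not, and lines are medians. The member subsets have medians of 0.42 to 0.55, while the chlorophyll synthesis genes lie mostly left of 0 with medians of -0.33 and -0.27.

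Of 13 regulators of photosynthesis genes, 7 were higher and 1 lower in Col-0 (median log2 fold change 0.35) and 7 higher and 2 lower in npf8.4-1 (0.35). The list holds activators, such as GLK1, and repressors, such as COP1, so these counts and medians pool both kinds. GLK1 and GLK2 are transcription factors that activate antenna and chlorophyll synthesis genes. GLK1 had 166, 178 and 181 CPM in Col-0 day 0 and 244, 216 and 257 CPM in Col-0 day 2, and 139, 194 and 175 CPM and then 227, 225 and 216 CPM in npf8.4-1. It rose by 0.45 (SE 0.11, edgeR adjusted p = 0.00434) and 0.39 (SE 0.11, adjusted p = 0.00873), without overlap. GLK2 had 128, 128 and 142 CPM in Col-0 day 0 and 136, 124 and 122 CPM in Col-0 day 2, and 131, 170 and 125 CPM and then 189, 183 and 171 CPM in npf8.4-1. Its change did not pass in Col-0 (-0.06, SE 0.11) and passed in npf8.4-1 (0.35, SE 0.11, edgeR adjusted p = 0.0137), and at day 2 it was higher in npf8.4-1 than in Col-0 by 0.51 (SE 0.11, adjusted p = 0.0427). That genotype call was made in 9 of 20 other settings, with adjusted p from 0.00286 to 0.209, and the interaction of GLK2 did not pass (adjusted p = 0.441).

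GNC and GNL are GATA factors that promote greening, and HY5 and the PIF factors act on photosynthesis genes downstream of light. GNC gave 0.41 (SE 0.16, edgeR adjusted p = 0.0457, a call made in 11 of 20 other settings) and 0.34 (SE 0.16, adjusted p = 0.0797). GNL, at 0.629 to 3.44 CPM, gave -0.52 (SE 0.44) and -1.41 (SE 0.43, adjusted p = 0.0128), and HY5 did not pass (-0.15 and -0.25, SE 0.17). PIF4 rose by 0.64 and 0.75, PIF5 by 0.71 and 0.75 and the light-signalling repressor COP1 by 0.25 and 0.22. Of 17 circadian clock genes, whose phase sets the daily course of many antenna transcripts, 5 were higher and 2 lower in Col-0 (median 0.19) and 10 higher and 3 lower in npf8.4-1 (0.44), where Col-0 had 29.6% of all tested genes higher and 30.4% lower and npf8.4-1 had 32.5% and 31.6%. With the replicate number as a block, Col-0 had 7 clock genes higher and 5 lower, and npf8.4-1 had 11 and 5. ELF4 gave 1.92 and 1.65, ELF3 -1.11 and -1.33, LUX -1.46 and -2.11, and LNK1 0.52 and 0.73. The part of clock phase in the members' changes was not tested.

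Markers of other cell types moved between the days as well. All 6 dividing-cell markers were lower at day 2 in both genotypes, with a summed level of 224 to 355 TPM at day 0 and 69.4 to 115 TPM at day 2. PCNA2 gave -1.64 and -1.81, MCM2 -1.57 and -1.73, PCNA1 -1.74 and -2.06 and KNOLLE -1.71 and -2.07. Of the 6 vascular markers, 4 were higher in Col-0 and 6 in npf8.4-1, with a sum of 114 to 184 TPM and then 350 to 421 TPM, from IRX3 (0.22 and 0.27), the smallest change in the list, to SWEET12 (2.44 and 2.97), with SUC2 at 1.32 and 1.53 and SWEET11 at 1.09 and 1.69. Of 9 epidermis and guard cell markers, 3 were higher and 5 lower in Col-0 and 3 higher and 4 lower in npf8.4-1, with a sum of 737 to 1015 TPM and then 428 to 502 TPM. TMM gave -1.24 and -0.83, PDF1 -1.58 and -2.05, SLAC1 1.29 and 1.79, and KAT1 0.97 and 0.80. Of 6 mesophyll markers, 1 was higher (PRK, 0.30) and 1 lower (CA2, -0.46) in Col-0, and 2 were higher and 1 lower in npf8.4-1. Of 4 meristem and flower markers, AG (0.95 and 1.27) and SEP1 (0.95 and 0.71) were higher, at no more than 3.42 CPM in any library. Of 4 root markers only PRP3 could be tested, and it was lower in both genotypes, at 0.622 CPM or less and at 0 in all Col-0 day 2 libraries. The part of a changed cell mixture in the members' rises was not tested.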

How the data were processed

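Poly(A) RNA of young leaves was sequenced from 12 pools of 15 plants, 3 per group, with groups and numbers as in the titles. The labels call the replicates biological. Per the file headers, the authors deposited a table for each library that gives every gene a count of exon reads, its RPKM and its TPM. The RPKM values were not used. Demultiplexing with bcl2fastq 2.17.1.14 and the build TAIR10 are named in the submitters' processing notes, and a stranded mRNA kit in the labels' protocols. Not given in the sources used here are how reads were aligned and counted, on which strand and with what rule for multiple matches. Of the 37242 loci, 36810 matched the reference gene table and 36806 had identical bounds in TAIR10.1, among them all 42 members, so promoters and coding sequences were read from that genome (RefSeq).

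Counts were tested in 1 edgeR quasi-likelihood fit of 12 libraries with 4 group means (R 4.3.3, edgeR 4.0.16, limma 3.58.1), with TMM scaling, filterByExpr and robust dispersion. Adjusted p-values are Benjamini-Hochberg values over 19416 genes, with a threshold of 0.05. The SE of a log2 fold change comes from the quasi-likelihood statistic. CPM uses TMM-scaled totals, and shares of a family use TPM. The fit was tested on simulated counts, drawn independently for each gene with the same dispersion for every gene. They held no shift shared by the genes of a pool. That test therefore does not bear on how far calls of members that move together can be relied on.

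The members and the 12 other lists (116 genes) were chosen with earlier results of these data known. Values per library are given, in each subset, for the 2 largest rises and falls in Col-0, for the 2 highest mean TPM and for the 3 smallest p of each genotype comparison; LHCB4.1, PSBQ1 and LHCB1.4 are shown beside their copies. Up to 4 genes of each list are named by smallest p in Col-0 among those passing. Alternatives were other scalings (DESeq2 size factors, library totals), DESeq2 1.42.0, no filter on low counts, a fit of the compared groups alone, a replicate block, leaving out each library, replicate 3 of both day 2 groups left out, summed copies and shares of reads. No replicate pair agreed within sampling noise.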

Additional observations from a re-analysis of the deposited data

How the results depend on the processing

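The comparisons share samples, and the members share libraries, so one pool moves many calls. Of the 42 genes, the number higher in Col-0 was 21 to 33 with 1 library left out, 23 in a fit of only the groups compared, 23 without replicate 3 of both day 2 groups, 28 with no filter on low counts and 33 with library totals as the scale, against 32. Over all genes, Col-0 calls in either direction numbered 10270 to 11686, 10939, 11567, 11399 and 11335 in these settings respectively, against 11659. Photosystem I genes higher in Col-0 numbered 7 to 12 and photosystem II genes 4 to 7 with 1 library left out, and photosystem II genes 4 without replicate 3 of both day 2 groups. The number lower in npf8.4-1 was 0 to 1 with 1 library left out. With copies summed (29 rows in place of 42 genes) it was 0, 25 were higher in Col-0, and antenna entries higher in npf8.4-1 numbered 8. No member passed in a genotype comparison or in the interaction under any setting run. The rise of LHCB1.5 in share of LHCB1 in npf8.4-1 was 8.34 percentage points when reads replaced TPM.

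The labels do not pair the samples by replicate number, and not every same-numbered pair had a correlation over 0.1 in deviations from group means (-0.173 to 0.418), so the number stayed out of the reported fit. Replicates 1 and 3, but not 2, correlated best with their own number, and 9 of 17 clock genes kept one order of the numbers in all 4 groups. With a replicate block 31 members were higher in each genotype, and all genes called numbered 173 between genotypes at day 0, 615 at day 2 and 43 in the interaction, against 29, 279 and 0. DESeq2 called 232, 774 and 269. At day 2, 130 genes were called in a fit of only the groups compared and 44 without replicate 3 of both day 2 groups. With 1 library left out the counts were 12 to 37, 29 to 375 and 0 to 6. The cause of these differences was not tested.

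Signs that turned belonged to genes that did not pass. Without replicate 3 of both day 2 groups the Col-0 changes of LHCB1.2, LHCB1.3 and PSBQ1 were -0.23, -0.15 and -0.045. With 1 library left out in Col-0, LHCA6 ran from -0.12 to 0.0029, LHCB1.2 from -0.20 to 0.19, LHCB1.3 from -0.12 to 0.27, PSBQ1 from -0.032 to 0.14, PSBS from -0.15 to 0.0051, GLK2 from -0.11 to 0.0083 and HY5 from -0.27 to 0.062. In npf8.4-1, LHCB1.2 ran from -0.21 to 0.026 and LHCB1.3 from -0.23 to 0.020. The genotype difference of LHCB1.4 at day 2 ran from -0.59 to 0.0043.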
